A study of Mus musculus with 8 samples.

Results

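The barcodes described here carried the RNA of platelet genes but little RNA in all. They were selected on their own counts, by a rule applied to 8 single-cell RNA libraries of mouse bone marrow (BM). A barcode had to have at least 500 genes, at most 15% mitochondrial UMIs (unique molecular identifiers, each standing for 1 captured RNA molecule), fewer than 5000 UMIs, and at least 4 of the 8 genes Ppbp, Alox12, Cald1, Clec1b, Gp9, Tubb1, Treml1 and Myl9 detected by 1 or more UMIs. The rule found 335 barcodes among 48290 in the matrices and among 23222 that passed the filters on genes and mitochondrial UMIs. They are called low-RNA platelet-gene barcodes below, and the 1600 barcodes that met the same rule with 5000 or more UMIs are called RNA-rich. Total UMIs, gene number, mitochondrial share and the 8 genes chose the barcodes, so these values are given as a description.

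The study asked how megakaryocytes (Mk) of the BM differ with age and sex. Cells of C57BL/6 mice, with no genetic change or treatment given in the labels, were enriched by magnetic beads and sorting for CD41 and CD42d, surface proteins of Mk and platelets, and run on the 10x Genomics platform. The groups were young females (3 months, 6 mice), old females (over 24 months, 6 mice), young males (3 months, 6 mice) and old males (over 24 months, 5 mice). The mice of a group were pooled, and each pool gave 1 femur and 1 tibia library. Differences between the libraries of a group are thus differences between bones of 1 pool, and mice are not replicated. In the order of the groups just given, the femur libraries held 34324081, 31841794, 104436964 and 50093442 UMIs. The tibia libraries held 33295357, 20707363, 83109009 and 39593469 UMIs, again in that order. Of 47961 distinct barcode sequences, 328 occurred in more than 1 library, and 3 of the 335 barcodes did, none of them as a low-RNA platelet-gene barcode in both.

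Mk are the large polyploid marrow cells that shed platelets. As they mature, they stop replicating their DNA, fill with granules and build the microtubules and actin filaments along which platelets are drawn out. Platelets have no nucleus and carry over part of the RNA of their Mk. The genes of the rule belong to this late stage. Ppbp and its neighbour Pf4 encode chemokines stored in alpha granules, Tubb1 the platelet beta-tubulin, Cald1 and Myl9 regulators of actin and myosin, Alox12 a lipoxygenase, and Clec1b, Gp9 and Treml1 platelet surface receptors.

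Barcodes of this kind occurred in every library, and few of them came from old mice. There were 45 in the femur and 75 in the tibia library of young females, 15 and 18 in the old female, 91 and 72 in the young male and 7 and 12 in the old male libraries. Old mice thus gave a small number of barcodes in each library, and their summed counts rest on 30927 and 49155 UMIs in old females and on 22224 and 31492 in old males. The sums of young libraries were larger, at 97177 and 140774 UMIs in females and 212808 and 217699 in males.

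Over the 335 barcodes the total ran from 734 to 4998 UMIs with a median of 2174, and the gene number from 500 to 2128 with a median of 799. The mitochondrial share had a median of 5.27%. Median totals by library were 1727 and 1489 UMIs in the young female libraries, 1474 and 2720 in the old female, 1885 and 2857 in the young male and 3490 and 2614.5 in the old male ones. Those of the RNA-rich barcodes lay between 32548 and 63278. Barcodes with 4 rule genes numbered 111, those with 5 numbered 87, with 6 48, with 7 51 and with 8 38. The young male tibia library stood apart, with 22 barcodes at 7 and 27 at 8 genes among its 72. Outside the rule lay 188 barcodes with 3 of the genes, 190 with fewer than 500 genes and 69 above 15% mitochondrial UMIs. Of the 190, 78 had 400 to 499 genes, and of the 69, 30 had up to 20% mitochondrial UMIs. Platelet-gene barcodes with 4000 to 4999 UMIs numbered 45 and those with 5000 to 5999 numbered 11.

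**Figure D1:**
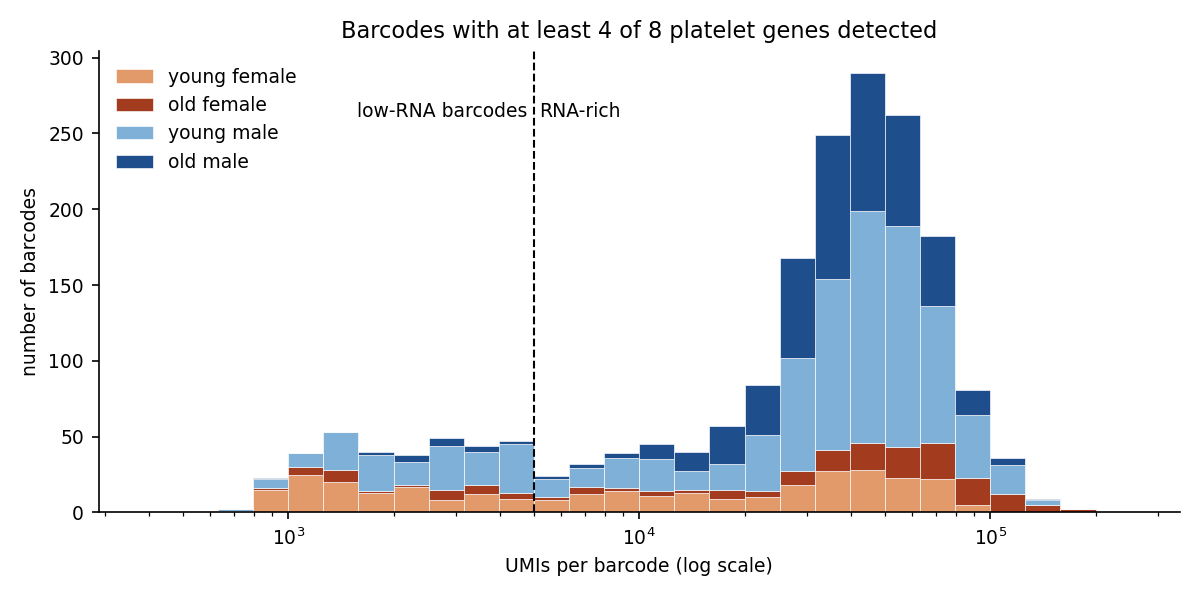
Number of barcodes (vertical axis) with at least 4 of the 8 platelet genes against UMIs per barcode (horizontal axis, log scale), stacked by group; the dashed line is the limit of 5000 UMIs. Most of the 1600 RNA-rich barcodes form a peak far to the right of the 335 low-RNA ones.

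Of the rule genes, Ppbp was detected most often, in 317 of 335 barcodes (94.6%). Cald1 followed with 79.4%, then Alox12 with 79.1%, Clec1b with 75.5%, Myl9 with 70.7%, Gp9 with 63.3%, Treml1 with 54.6% and Tubb1 with 28.4%. Levels below are counts scaled to 1000000 UMIs (CPM), from sums over the low-RNA platelet-gene barcodes of a library. Ppbp stood at 1574 and 2145 CPM in the young female libraries (femur, tibia), 7178 and 4232 in the old female, 4412 and 9467 in the young male and 14714 and 4160 in the old male ones. Both young female libraries were below the other 6. In RNA-rich barcodes the same gene lay between 86.9 and 355 CPM. Myl9 stood at 566 and 838 CPM in the young female libraries, 420 and 509 in the old female, 1015 and 1984 in the young male and 1530 and 603 in the old male ones, against 0.913 to 23.1 CPM in RNA-rich barcodes. Clec1b ran from 529 to 2692 CPM over the 8 libraries, against 81.9 to 136 in RNA-rich ones. Treml1, a receptor of alpha granules, differed least between the 2 classes, with 185 to 1305 CPM against 139 to 214. Tubb1 had no UMI in the 7 barcodes of the old male femur library and 64.7 to 349 CPM in the other 7 libraries.

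Ppbp (chr5:90768518-90770063, plus strand) and Pf4 (chr5:90772435-90773383, plus strand, GENCODE M21 on mm10) lie next to each other, and their levels differed between the classes in unlike ways. Pf4 was detected in 99.7% of the low-RNA platelet-gene barcodes. Low-RNA barcodes with none of the 8 platelet genes held it in 86.7% and 96.4% of cases in the young female libraries. In the other libraries this background ran from 26.8% to 65.3%. Detection alone thus sets the platelet-gene barcodes little apart in young females. In low-RNA platelet-gene barcodes Pf4 stood at 7491 and 7224 CPM in the young female libraries, 10735 and 12796 in the old female, 6701 and 11121 in the young male and 25198 and 9621 in the old male ones. RNA-rich barcodes held 8504 to 14137 CPM of Pf4, so the ranges overlapped, and Pf4 was higher in low-RNA barcodes in 4 of 8 libraries. Ppbp was higher in 8 of 8, as the rule favours. The start regions of both genes are shown because of this contrast, which was noticed after the values were seen. They are the RefSeq windows of 250 bases before to 50 after each start on GRCm38.p6, chr5:90768268-90768567 for Ppbp and chr5:90772185-90772484 for Pf4, plus strand, 5′ to 3′.

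Ppbp: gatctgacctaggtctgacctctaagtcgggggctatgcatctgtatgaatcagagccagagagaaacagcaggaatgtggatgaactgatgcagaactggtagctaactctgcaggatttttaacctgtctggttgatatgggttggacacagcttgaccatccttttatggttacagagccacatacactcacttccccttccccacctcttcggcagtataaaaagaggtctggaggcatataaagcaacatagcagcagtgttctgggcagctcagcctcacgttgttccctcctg

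Pf4: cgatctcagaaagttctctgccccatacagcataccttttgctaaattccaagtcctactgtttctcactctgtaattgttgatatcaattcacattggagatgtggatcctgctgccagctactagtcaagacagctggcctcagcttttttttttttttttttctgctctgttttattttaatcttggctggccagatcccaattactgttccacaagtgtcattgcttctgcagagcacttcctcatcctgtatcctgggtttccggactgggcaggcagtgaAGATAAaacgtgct

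Capitals mark AGATAA, the core motif that GATA factors bind, searched on both strands. It occurred once in the Pf4 window, 36 bases after the start, and not in that of Ppbp. The motif was found in 11.2% of all 32851 windows and in 1 of the 9 windows of the 8 rule genes, that of Clec1b. These matches describe the letters only.

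Mk markers that the rule did not use were present in most of the barcodes. Of 10 further Mk markers, such as Pf4, Itga2b, Gp6, Vwf and Nrgn, at least 3 were detected in 307 of 335 barcodes (91.6%), with a median of 5. The median rose from 4 in barcodes with 4 rule genes to 9 in those with all 8, whose median totals were 1920 and 3434.5 UMIs. The part of RNA free in the droplets in this detection was not tested. Of these markers, Pf4 was also found in 86.7% and 96.4% of young female low-RNA barcodes with none of the 8 platelet genes. In 53 barcodes (15.8%) more markers of another cell type were detected than of Mk. None had 3 or more markers of T and NK cells or of stem and progenitor cells. Whether a barcode held a whole Mk, part of one or platelets cannot be told apart from these counts.

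The share of low-RNA platelet-gene barcodes among all barcodes that passed the filters was 1.23% in the femur and 2.36% in the tibia library of young females, 1.84% and 3.21% in the old female, 1.70% and 2.01% in the young male and 0.235% and 0.390% in the old male libraries. Both old male libraries were below the other 6. The 95% Wilson intervals, which cover counting error only, reached 0.485% and 0.681% in the old male libraries and did not go under 1.38% and 1.60% in the young male ones. The mean was 1.42% ± 1.397 over the 4 old libraries and 1.82% ± 0.479 (SD, n = 4) over the 4 young ones, a difference well within the spread (two-sided exact permutation test over 70 assignments, p = 0.629, smallest possible p = 0.0286). Within a sex, an exact permutation test of 2 libraries against 2 cannot go below p = 0.3333, so none was made. The means were 0.313% ± 0.110 in old and 1.85% ± 0.219 in young males, and 2.53% ± 0.975 in old and 1.79% ± 0.799 in young females (SD, n = 2).

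Among platelet-gene barcodes alone, those with low RNA made up 31.0% and 42.9% in the young female libraries, 14.2% and 24.7% in the old female, 19.96% and 15.1% in the young male and 2.32% and 6.00% in the old male ones. Each old library was below both young libraries of its sex, although the 95% Wilson interval of the old female tibia library (16.2% to 35.6%) overlapped that of the young female femur library (24.1% to 38.97%). Over all libraries the mean was 11.8% ± 9.91 in old and 27.2% ± 12.4 in young (SD, n = 4; exact permutation test, p = 0.114). With at least 5 rule genes required in place of 4, the difference grew from -15.4 to -26.5 percentage points and reached the smallest possible p (exact permutation test, p = 0.0286). With barcodes removed that held 3 or more markers of another cell type, it turned to 4.02 percentage points higher in old (exact permutation test, p = 0.571). That removal left 1 barcode in each young female library.

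**Figure D2:**
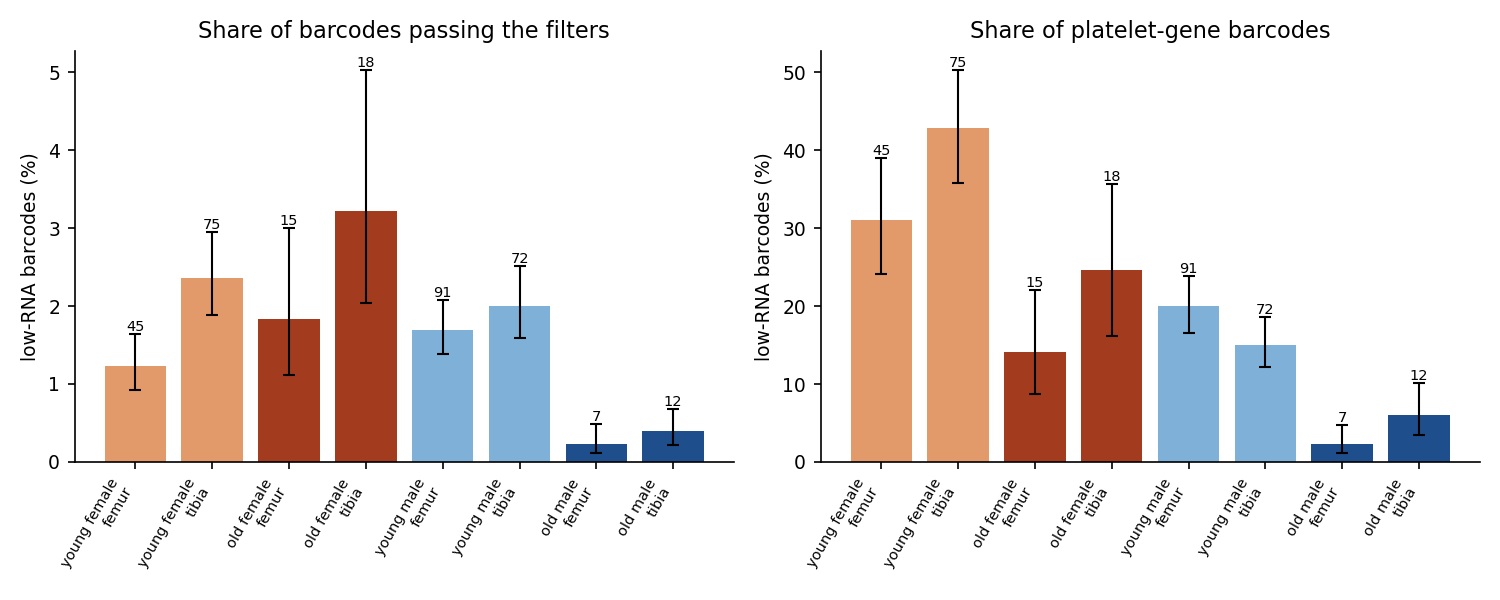
Share of low-RNA platelet-gene barcodes (vertical axes, %) among barcodes that passed the filters (left) and among platelet-gene barcodes (right) in each of the 8 libraries (horizontal axis). Bars start at 0, error bars are 95% Wilson intervals, and the numbers are low-RNA barcodes. The old male libraries, with 7 and 12 barcodes, have the lowest shares in both panels.

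RNA of other marrow cells was present in these barcodes. At least 3 of 10 neutrophil markers were detected in 177 of 335 barcodes (52.8%). They were 44 of 45 and 72 of 75 in the young female libraries, 4 of 15 and 1 of 18 in the old female, 38 of 91 and 17 of 72 in the young male and 1 of 7 and 0 of 12 in the old male ones. Monocyte and macrophage markers met the same bar in 34 barcodes, erythroid ones in 20, B cell ones in 18 and plasma cell ones in 2. In all, 201 barcodes (60%) met it for at least 1 of these types. Scrublet called 1 of the 335 a doublet, in libraries where it called 0% to 2.12% of all filtered barcodes.

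S100a8 and Camp are abundant in neutrophils, the first as a calcium-binding alarmin and the second as the antimicrobial cathelicidin. S100a8 was summed to 2583 and 2600 CPM in the young female libraries, 550 and 305 in the old female, 3017 and 1061 in the young male and 270 and 381 in the old male ones. All 4 old libraries lay below all 4 young ones. In the young male femur library 1 barcode carried 81.0% of the S100a8 UMIs, and in the tibia library 1 barcode carried 72.3%. Camp stood at 659 and 725 CPM in the young female libraries, 64.7 and 81.4 in the old female, 898 and 349 in the young male and 45.0 and 63.5 in the old male ones, again with no overlap between ages. In the young male libraries 1 barcode each carried 84.8% and 72.4% of the Camp UMIs.

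B cells lack both transcripts, so barcodes with at least 4 of 8 B cell markers served as a reference for RNA free in the droplets. S100a8 was detected in 100% and 98.7% of the low-RNA platelet-gene barcodes of young females (medians of 1727 and 1489 UMIs) and in 97.5% of the reference barcodes of both libraries (medians of 5276 and 5279.5 UMIs). The levels there were 2712 and 1396 CPM in the reference, against 2583 and 2600 CPM in the low-RNA platelet-gene barcodes. In young males detection was 65.9% and 48.6% against 74.9% and 45.3% in the reference, and the reference held more S100a8 per UMI (4231 and 3060 CPM). Detection in barcodes as deposited was thus close to that of the reference in young libraries. Barcodes with fewer than 1000 UMIs were left out of thinning to 1000 UMIs, which left 36 and 68 of the young female and 86 and 70 of the young male low-RNA platelet-gene barcodes. Of these, 88.9% and 89.7% and 36.0% and 25.7% retained S100a8, against 55.6% and 55.2% and 24.9% and 12.2% of the reference. The reference barcodes had higher median totals, so thinning took more of their RNA, and these gaps do not measure RNA beyond the free part. Old female references held only 13 and 16 barcodes. Old males had 57.1% and 66.7% against 42.0% and 45.9%, from 7 and 12 barcodes, and after thinning 66.7% and 8.33% against 12.3% and 14.4%, so the tibia library then lay below its reference.

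Igkc, the constant part of the kappa antibody chain, was read against barcodes with at least 10% of their UMIs from the neutrophil list. It was detected in 95.6% and 90.7% of the low-RNA platelet-gene barcodes of young females, and in 95.2% and 92.0% of the neutrophil reference (medians of 10539.5 and 11646.5 UMIs). After thinning to 1000 UMIs, 77.8% and 77.9% of the 36 and 68 young female barcodes that reached this depth and 41.7% and 28.2% of the reference retained it, and the reference held 286 and 219 CPM. In the low-RNA platelet-gene barcodes its level was 1564 and 1733 CPM in the young female libraries, 323 and 163 in the old female, 1772 and 625 in the young male and 1125 and 2191 in the old male ones. Old females were the lowest of the 4 groups, and old and young males overlapped. The neutrophil reference held 43.4 and 37.2 CPM in the old female, 446 and 880 in the young male and 346 and 528 in the old male libraries. Ppbp was found in 7.04% and 6.99% of the B cell reference of young females. Its 91.1% and 93.3% in the low-RNA platelet-gene barcodes were favoured by the rule, so no comparison is drawn. Pf4, which the rule did not use, was found in 87.5% and 95.3% of that reference. In the low-RNA platelet-gene barcodes of both libraries it was found in 100%. After thinning to 1000 UMIs Pf4 was retained in 38.7% and 50.3% of the reference, against 91.7% and 97.1%. The limit given for thinned S100a8 holds for Igkc and Pf4 too, since both references had higher median totals.

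Summed over 20 neutrophil genes, the share of UMIs was 0.840% and 0.835% in the young female libraries, 0.178% and 0.110% in the old female, 1.10% and 0.381% in the young male and 0.0765% and 0.171% in the old male ones. S100a9 was the most abundant gene of the list, and none of the 20 was at 0. The share was lower in old than in young libraries (old minus young, -0.655 percentage points, 0.134% ± 0.0490 against 0.789% ± 0.299, SD, n = 4; two-sided exact permutation test, p = 0.0286, the smallest it can give). In young males 1 barcode of each library carried 84.8% and 72.4% of the Camp UMIs, so these shares rested in large part on few barcodes. With barcodes removed that held 3 or more markers of another cell type, the difference was -0.394 percentage points (exact permutation test, p = 0.0286). That removal selects on neutrophil markers and left 1 barcode in each young female library. In RNA-rich barcodes the neutrophil share was 0.0705% and 0.147% in the young female libraries, 0.0333% and 0.0202% in the old female, 0.786% and 0.222% in the young male and 0.104% and 0.146% in the old male ones. Each old library was there too below both young ones of its sex. S100a8 in the B cell reference had the same order, at 2712 and 1396 CPM in young and 122 and 119 in old females. The old female references held only 13 and 16 barcodes. Young male references held 4231 and 3060 CPM and old male ones 784 and 704. Barcodes with fewer than 5000 UMIs and none of the 8 platelet genes, from which neutrophils were not removed, did not show this order. Their neutrophil share was 1.46% and 1.61% in the young female libraries, 1.73% and 2.23% in the old female, 2.58% and 2.42% in the young male and 1.83% and 2.90% in the old male ones. The median share per barcode did not pass the test (-0.421 percentage points, exact permutation test, p = 0.171). The share of 12 immunoglobulin genes was 0.237% ± 0.220 in old and 0.378% ± 0.125 in young libraries (SD, n = 4; exact permutation test, p = 0.257). Of that list Igkc was the most abundant and Ighg1 was at 0.

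**Figure D3:**
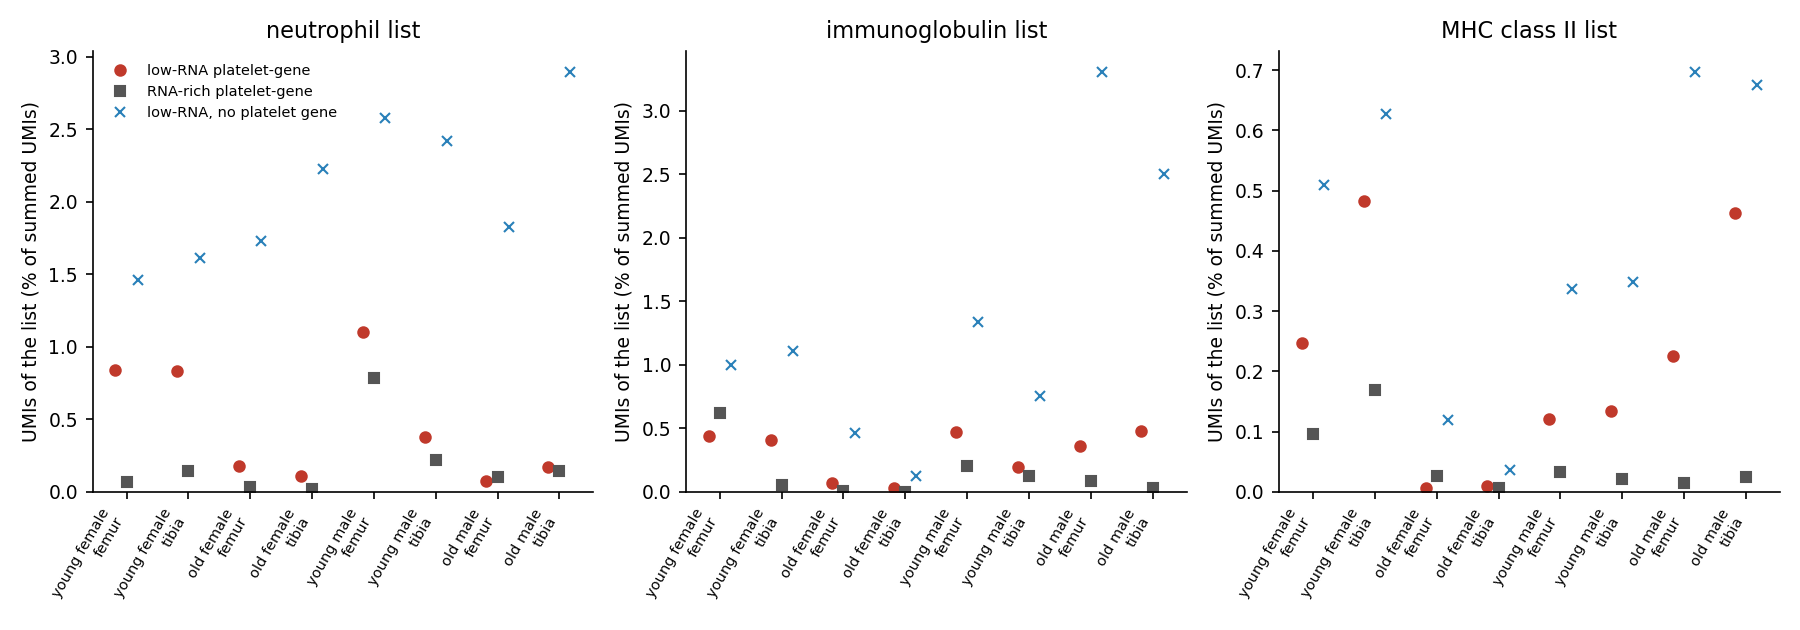
UMIs of the neutrophil, immunoglobulin and MHC class II lists as a percent of summed UMIs (vertical axes) in each library (horizontal axis), for low-RNA platelet-gene barcodes (red circles), RNA-rich ones (grey squares) and low-RNA barcodes with none of the 8 platelet genes (blue crosses). The neutrophil share of the red circles is at most 0.178% in old and at least 0.381% in young libraries, and the blue crosses lie above the red circles in every library and panel.

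The most abundant RNA of the low-RNA barcodes in 7 of 8 libraries was Rn18s-rs5, an 18S ribosomal RNA copy. It took 13.6% and 9.01% of the summed UMIs in the young female libraries, 22.1% and 14.6% in the old female, 19.2% and 17.7% in the young male and 2.66% and 7.97% in the old male ones, against 0.627% to 3.78% in RNA-rich barcodes. Old male libraries held the least in both classes, and in old male femur Tmsb4x exceeded it. In 105 barcodes it exceeded 20% of UMIs. Its part in the differences described here was tested only by taking the ribosomal RNA genes out before normalization, as given with the settings at the end.

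Compared with RNA-rich barcodes at the depth deposited, the low-RNA ones had higher levels of most listed genes of the cytoskeleton and lower levels of most listed genes of cell division. The rule chose both classes on RNA of the same barcodes, and a low barcode with 4 platelet genes detected must be rich in them. What follows is therefore a description with no test, and fitted log2 differences (low-RNA minus RNA-rich, edgeR, 4 young libraries) are given with their standard errors. Of 9801 genes other than the rule genes, 419 (4.28%) were at least 2-fold higher and 1316 (13.4%) at least 2-fold lower in all 4 young libraries, and the median log2 difference was -0.33.

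Most differences named below were smaller where they could be fitted at equal depth. Barcodes of both classes were thinned to 1000 UMIs and retained only with 4 rule genes after thinning. That left 6 and 24 RNA-rich against 51 and 57 low-RNA barcodes in the young male libraries, the 2 that could be fitted. Of the genes named below, Gas2l1 had a log2 difference of 0.50 there, Sh3bgrl2 of 0.77, Mpig6b of 1.24, Gp6 of 0.56, Thbs1 of 0.62, Tmsb4x of 0.56 and Nrgn of 1.59. Little was left for Fcer1g (0.067), Gp1ba (0.016), Angpt1 (-0.057) and Tbxas1 (-0.18). Others, among them F2r, P2ry12, Runx1, Meis1, Mki67, Top2a and Pola1, could not be fitted there, so their differences were not checked at equal depth. Slc6a4 (-0.39), Tpm2 (-0.55), Cd226 (-0.22), Gp1bb (-0.98), Itga2 (-0.047) and Mef2c (0.58) changed sign, and Dut stood at 1.81. The parts of depth, of the renewed selection and of the fewer libraries in this were not tested apart. The values that follow are at the depth deposited.

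Among 27 platelet receptors outside the rule, 4 were at least 2-fold higher in all 4 young libraries (Gp6, Cd226, Mpig6b and Fcer1g) and 2 were lower (F2r and Htr2a), with a median log2 difference of 1.57. Gp6, the collagen receptor, stood at 134 and 284 CPM in the young female libraries, 226 and 163 in the old female, 273 and 675 in the young male and 540 and 286 in the old male ones. RNA-rich barcodes held 3.92 to 38.5 CPM, below every low-RNA value. Mpig6b, an inhibitory receptor, stood at 142 to 588 CPM against 3.92 to 16.6 (log2 5.80 ± 0.33). The subunits of the von Willebrand factor receptor were higher in 8 of 8 libraries, with 72.0 to 611 CPM of Gp1ba, 61.7 to 720 of Gp1bb and 129 to 845 of Gp5. Itga2b, the CD41 chain on which cells were enriched, ran from 427 to 3620 CPM and was below the RNA-rich value in both old female libraries. P2ry12, the ADP receptor, stood at 0 to 262 CPM, with no UMI in old male femur, and was higher in 6 of 8 libraries. F2r, a thrombin receptor, went the other way in 8 of 8 libraries, with 41.2 and 63.9 CPM in the young female libraries, 226 and 183 in the old female, 56.4 and 68.9 in the young male and 135 and 159 in the old male ones, against 174 to 318 CPM in RNA-rich barcodes. Htr2a, a serotonin receptor, was detected in only 3.58% of the low-RNA barcodes. Itga2, a collagen-binding integrin chain, was higher in 7 of 8 libraries.

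Of 21 alpha granule genes tested, 8 were at least 2-fold higher and 2 lower (median log2 0.91), and the whole list took a larger share of UMIs in low-RNA barcodes in 5 of 8 libraries. Thbs1, the matrix protein thrombospondin, stood at 607 and 1328 CPM in the young female libraries, 226 and 692 in the old female, 907 and 4143 in the young male and 1125 and 635 in the old male ones. RNA-rich barcodes held 16.8 to 58.5 CPM. Nrgn, a calmodulin-binding protein known from platelets, was detected in 89.0% of the barcodes, at 900 to 5029 CPM against 287 to 430. Ecm1, an extracellular matrix protein, differed by a log2 of 5.409 ± 0.35 and had no UMI in old male femur. Angpt1, a growth factor of vessels and stem cells, was lower in 8 of 8 libraries, with 244 to 699 CPM against 1748 to 2713. Among 19 genes of dense granules and release, 3 were higher (Slc6a4, Stx11 and Snap23) and none lower. Slc6a4, the transporter that takes serotonin into platelets, ran from 30.9 to 625 CPM against 0.951 to 10.4.

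Of 31 genes of the cytoskeleton and proplatelet formation, 18 were at least 2-fold higher in all 4 young libraries and none lower (median log2 2.05). Tmsb4x, which binds single actin molecules, stood at 25160 and 31632 CPM in the young female libraries, 13807 and 18452 in the old female, 20060.3 and 34998 in the young male and 34107 and 17655 in the old male ones. RNA-rich values, at 6204 to 10569 CPM, were below all of these. Actb ran from 10208 to 20563 CPM against 3043 to 4637, and Myl6, a myosin light chain, from 2191 to 6573 against 632 to 828. The list as a whole took 5.20% to 9.40% of the UMIs of low-RNA barcodes and 1.88% to 2.33% of those of RNA-rich ones.

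Gas2l1, already counted with the cytoskeleton genes above, and Tpm2 were among the genes with the largest differences. Gas2l1, which links actin to microtubules, stood at 244 to 1158 CPM against 5.48 to 17.5 (log2 6.06 ± 0.33), and Tpm2, a tropomyosin, at 129 to 810 against 4.23 to 23.8 (log2 5.53 ± 0.32). Sh3bgrl2 (log2 6.33 ± 0.34) was higher in 8 of 8 libraries, while Ccdc92 (6.63 ± 0.47), Mmp19 (6.06 ± 0.52) and Tspan2 (5.96 ± 0.52) had no UMI in 1 or 2 of the old libraries. Hba-a1, an alpha-globin gene of red cells, was also among them, with 823 and 2025 CPM in young females and 102 to 352 in the other 6 libraries.

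Of 22 signalling genes, 5 were at least 2-fold higher and 2 lower (median log2 0.91). Plek, a substrate of protein kinase C, stood at 2475 to 5255 CPM against 1023 to 1614. Rap1b, the small GTPase that activates the fibrinogen receptor, ran from 1804 to 3266 against 1768 to 2368, a small gap in 8 of 8 libraries. Of 9 eicosanoid genes, none was 2-fold higher and Tbxas1, which makes thromboxane, and Pla2g4a were lower (median log2 0.19).

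Of 18 transcription factors of the Mk lineage, 7 were at least 2-fold lower in all 4 young libraries (among them Runx1, Mef2c and Meis1) and 1 was higher (Nfe2), with a median log2 difference of -0.44, beside -0.33 over all genes. Runx1, which is needed for Mk to mature, stood at 473 and 362 CPM in the young female libraries, 226 and 142 in the old female, 484 and 207 in the young male and 359.97 and 572 in the old male ones, all below the 1257 to 2449 CPM of RNA-rich barcodes. Nfe2, which drives late Mk genes such as Tubb1, ran from 183 to 501 CPM against 58.8 to 87.7. Of 10 stem and progenitor genes 5 were lower and 1 higher, and the lower ones include Meis1 and Angpt1, already counted above.

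Most listed genes of DNA replication and mitosis were lower. Of 20 genes of S phase 14 were at least 2-fold lower and none higher (median log2 -1.74), and of 22 genes of G2 and M phase 15 were lower and none higher (median log2 -2.07). Mki67, a marker of dividing cells, was detected in 11.0% of the low-RNA barcodes. It stood at 113 and 71.0 CPM in the young female libraries, 0 and 40.7 in the old female, 98.7 and 23.0 in the young male and 45.0 and 31.8 in the old male ones, against 329 to 736 in RNA-rich barcodes. Top2a ran from 0 to 285 CPM against 310 to 528. Dut had a fitted log2 difference of 0.08 ± 0.28 and was higher by CPM in 1 of 8 libraries. Other genes with large negative differences were Nkg7 (log2 -4.06 ± 0.55), Runx3 (-3.98 ± 0.47), Ube2e2 (-3.95 ± 0.52), Cacnb2 (-3.68 ± 0.39), Dach1 (-3.50 ± 0.31), Chsy3 (-3.47 ± 0.36), Rad51b, Hs2st1 and Atad5 (each -3.30) and the polymerase subunit gene Pola1 (-3.30 ± 0.33).

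Of 40 nuclear genes of oxidative phosphorylation and 13 mitochondrial ones, none was 2-fold apart in all 4 young libraries (median log2 0.02 and 0.17). Heat shock genes had 1 lower of 10 tested, immediate early genes 1 lower of 17, interferon genes 1 higher of 10, and Mk inflammation genes 2 higher and 1 lower of 19. Ribosomal protein genes, a family looked at after the values were seen, had 13 of 79 lower and none higher (median log2 -0.86). Markers of other cells were higher in part, with 2 of 17 neutrophil, 2 of 8 immunoglobulin, 3 of 11 B cell, 6 of 13 monocyte and macrophage, 4 of 5 erythroid, 5 of 7 MHC class II and 1 of 3 dendritic cell genes at least 2-fold higher and none of these lower. Of the 6 monocyte and macrophage genes, F13a1 was also counted with the alpha granule genes above. Plasma cell genes had 1 lower of 4, T and NK genes 1 lower of 3, and basophil and mast cell (8), endothelial and stromal (3) and Y-linked genes (4) none either way. When each barcode was thinned to 1000 UMIs, at least 4 rule genes were still detected in 33.3% to 81.4% of the low-RNA barcodes of a library that had 1000 UMIs or more and in 0% to 7.27% of the RNA-rich ones.

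**Figure D4:**
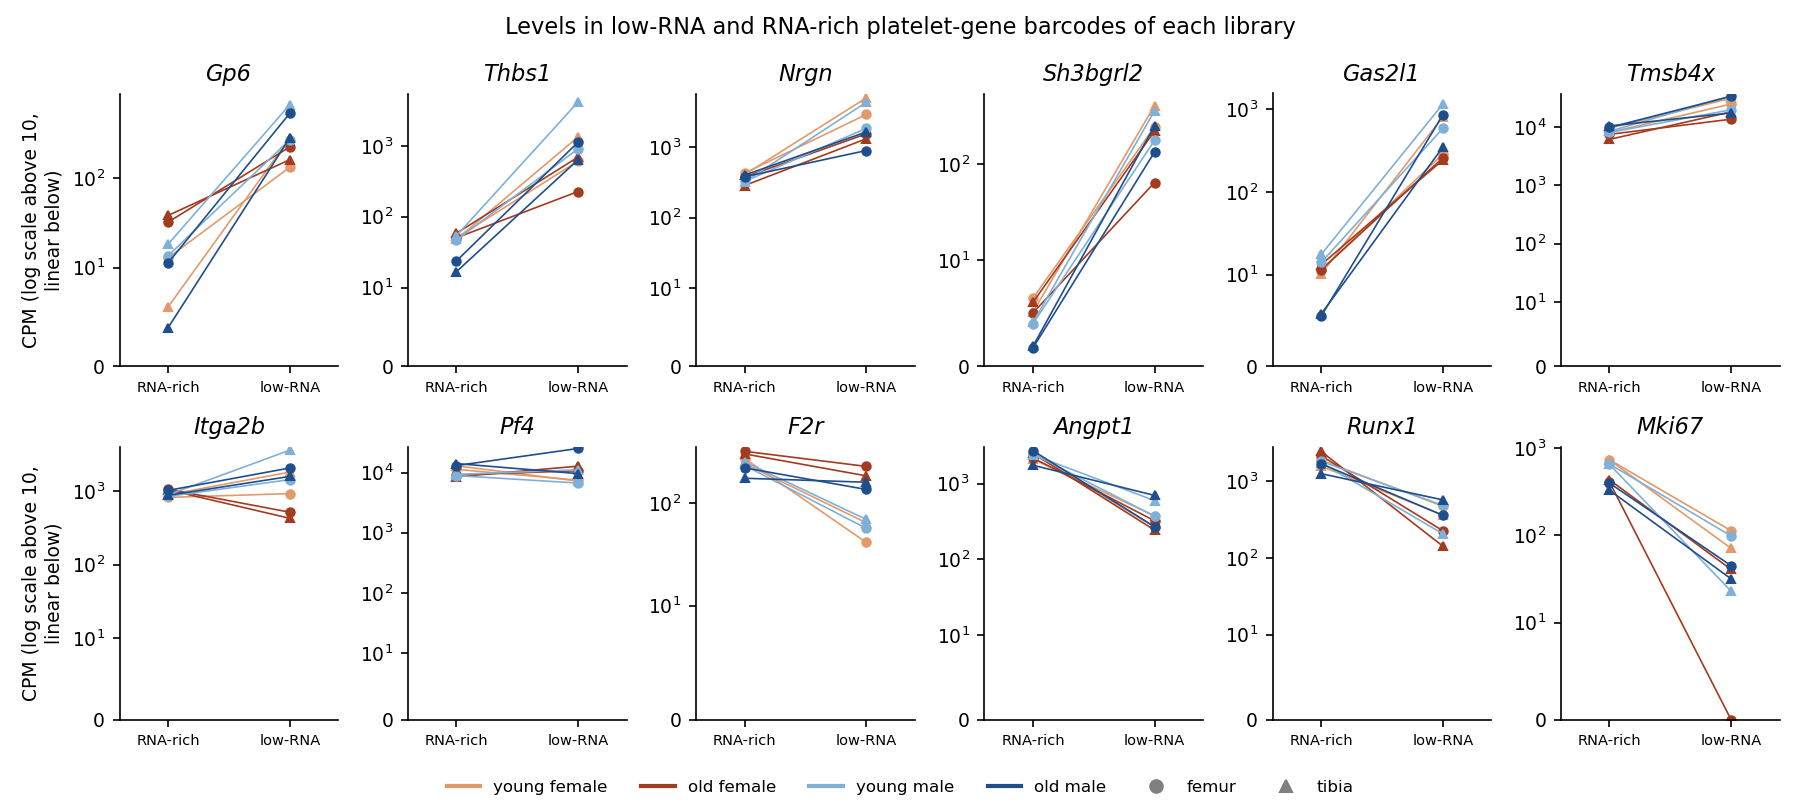
Levels of 12 genes in CPM (vertical axes, log scale above 10 and linear below) in RNA-rich and low-RNA platelet-gene barcodes of the same library, joined by a line; colours mark the group and symbols the bone. Gp6, Thbs1, Nrgn, Sh3bgrl2, Gas2l1 and Tmsb4x rise and F2r, Angpt1, Runx1 and Mki67 drop along every line, whereas Itga2b and Pf4 go both ways.

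Age was compared in the low-RNA platelet-gene barcodes with edgeR (quasi-likelihood test, Benjamini-Hochberg adjustment) on counts summed per library. No old library reached the planned 20 barcodes, so all 8 were used, down to 7 barcodes. In females 4 of 1622 genes (0.247%) were higher and 49 (3.02%) lower in old mice, 3.27% in all. In males 7 (0.432%) were higher and 7 (0.432%) lower, 0.863% in all. With both sexes together 7 (0.432%) were higher and 33 (2.03%) lower, 2.47% in all. The age change differed between the sexes for 27 genes (1.66%), with 24 (1.48%) higher and 3 (0.185%) lower in males than in females. The lists of other cells held 37 of the genes tested, of which 20 fell in females, 5 fell and 3 rose in males, and 14 fell in both together. Lists of platelet and Mk genes, the rule genes left out, held 113 of the genes tested. Of these 1 fell and 2 rose in females, none changed in males, and 2 fell and 2 rose in both together. With barcodes removed that held 3 or more markers of another cell type, 509 genes could be tested and none passed in females, in both sexes together or for the difference between sexes (edgeR, 50, 43 and 64 at an unadjusted p under 0.05), and 1 passed in males. This removal left 1 barcode in each young female library, so comparisons that include young females cannot decide whether the calls hold. Of the 53, 40 and 27 genes called before this removal, 16, 18 and 7 could be tested, and 14, 16 and 7 of these had the same sign.

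Timp3, an inhibitor of matrix metalloproteinases, rose most among platelet and Mk genes. It stood at 103 and 107 CPM in the young female libraries, 2684 and 1424 in the old female, 465 and 381 in the young male and 765 and 540 in the old male ones. Both old female libraries were above every other library, old male femur being the nearest, and the old female tibia level rested largely on 1 barcode. The UMIs were found in 6 of 45 and 9 of 75 barcodes in young females and in 11 of 15 and 8 of 18 in old females, and the barcode with the most carried 30.1% and 52.9% of them in old females. The log2 change was 4.21 ± 0.60 in females (adjusted p = 1.7e-05) and 0.32 ± 0.55 in males (adjusted p = 0.92), and it differed between the sexes (male minus female, -3.89 ± 0.79, adjusted p = 0.0026). Without barcodes holding RNA of another type, which left 1 barcode in each young female library, the log2 change in females was 9.61 and the adjusted p 0.051 (edgeR). In RNA-rich barcodes Timp3 stood at 260 and 252 CPM in the young female libraries, 494 and 667 in the old female, 311 and 382 in the young male and 497 and 391.7 in the old male ones. Low-RNA barcodes without platelet genes held 32.6 and 33.7 CPM in young and 207 and 199 in old females.

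Serpine2, a protease inhibitor of alpha granules, stood at 72.0 and 107 CPM in the young female libraries, 614 and 590 in the old female, 258 and 358 in the young male and 990 and 349 in the old male ones. It rose in females by a log2 of 2.64 ± 0.62 (adjusted p = 0.01), and no longer passed when any 1 of the female libraries was left out, with genes of low count retained (adjusted p = 0.0691) or with at least 5 rule genes (0.0511). Slc14a1, a urea transporter, stood at 144 and 107 CPM in the young female libraries, 776 and 631 in the old female, 263 and 239 in the young male and 945 and 476 in the old male ones. All 4 old libraries exceeded the 4 young ones, with a log2 change of 1.80 ± 0.40 in both sexes together (adjusted p = 0.0057). Slc14a1 no longer passed in 4 of 8 fits with 1 library left out or with genes of low count retained (adjusted p = 0.153). Slpi, a protease inhibitor of secretions, and Ssr1 and Pdia3, which act in the endoplasmic reticulum, rose by 1.998 ± 0.51, 2.02 ± 0.48 and 1.57 ± 0.42 in both sexes together (adjusted p = 0.019, 0.011 and 0.031). With 1 library left out they no longer passed in 4, 4 and 5 of 8 fits, and none of the 3 passed with genes of low count retained (adjusted p = 0.153, 0.136 and 0.396) or with at least 5 rule genes (0.189, 0.0585 and 0.193).

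Nrgn was the only gene of the platelet lists to fall besides Prkcb, a kinase also used by B cells. Nrgn stood at 2922 and 5029 CPM in the young female libraries, 1552 and 1322 in the old female, 1861 and 4359 in the young male and 900 and 1651 in the old male ones, and fell by 1.55 ± 0.38 on the log2 scale in both sexes together (adjusted p = 0.012). It no longer passed in 4 of 8 fits with 1 library left out or with at least 5 rule genes (adjusted p = 0.164), and Prkcb did not pass in 4 of 8 or with DESeq2 (adjusted p = 0.0848). The old libraries were all below the young ones. Neither sex passed on its own (adjusted p = 0.11 in females and 0.22 in males). None of the 22 platelet receptors tested passed the age test. Itga2b had a log2 difference of -1.62 ± 0.56 in females (adjusted p = 0.12) and -0.77 ± 0.52 in males (adjusted p = 0.67), P2ry12 of -2.04 ± 0.92 and -0.82 ± 0.80, and F2r of 1.82 ± 0.86 and 0.94 ± 0.90.

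S100a8 fell by 2.69 ± 0.58 on the log2 scale in females (adjusted p = 0.0047) and by 2.89 ± 0.61 in males (adjusted p = 0.012), and Camp by 3.28 ± 0.71 and 3.72 ± 0.80. In young males 1 barcode of each library carried 81.0% and 72.3% of the S100a8 UMIs and 84.8% and 72.4% of the Camp UMIs. Without barcodes holding RNA of another type the log2 difference of S100a8 in males was -0.43 (edgeR, adjusted p = 0.857). S100a8 is among the neutrophil markers by which that removal selects, so this value cannot tell where the fall came from. Ngp, a granule protein, had 61 and 64 UMIs in the young female libraries, 2 and 2 in the old female, 222 and 46 in the young male and none in the old male ones. That is at least 11.1-fold lower in old males, against a floor of 3 counts over the group. In young males 1 barcode carried 83.3% of the Ngp UMIs of the femur and 71.7% of those of the tibia library. S100a9 fell by 2.84 ± 0.42, Lcn2 by 3.87 ± 0.85 and Ltf by 5.11 ± 1.19 in both sexes together. With 1 library left out Ltf no longer passed in 4 of 8 fits (adjusted p = 0.201 without young male femur) and Lcn2 in 2 of 7, and S100a9 passed in all 8. In males S100a8 no longer passed in 3 of 8 such fits, with thinning to 500 UMIs (adjusted p = 0.0956) or with at least 5 rule genes (0.706), and Camp in 2 of 8 or with the same 2 settings (0.320 and 0.481). In females S100a9 no longer passed in 3 of 8 fits or with at least 5 rule genes (adjusted p = 0.0861).

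Of 11 listed B cell genes 3 could be tested and 2 fell in females. Of 7 listed MHC class II genes 4 could be tested and all 4 fell. Over all genes 49 of 1622 (3.02%) fell. Cd74, the MHC class II invariant chain, stood at 1091 and 2273 CPM in young females and had no UMI in old females, at least 47.8-fold lower. Young male libraries held 507 and 684 CPM and old male ones 945 and 1873, where 95.2% and 76.3% of its UMIs were in 1 barcode. H2-Eb1 and H2-Ab1, chains of MHC class II, were at least 17.1-fold and 14.8-fold lower in old females. Bach2, on none of the lists of other cells, and the listed B cell gene Bank1 were at least 15.8-fold and 13.8-fold lower. Ebf1, which sets B cell identity, fell in males by 3.89 ± 0.93 (adjusted p = 0.031) and had 1 UMI in old females. In males it did not pass with DESeq2 (adjusted p = 0.103) or with at least 5 rule genes (adjusted p = 0.616). Old female libraries as a whole held few B cells, with 13 and 16 barcodes of at least 4 B cell markers, against 1279 and 1030 in the young female, 630 and 435 in the young male and 581 and 728 in the old male libraries. In low-RNA barcodes without platelet genes Cd74 stood at 2659 and 3432 CPM in young and 357 and 110 in old females. The part of these cells in the result was not tested beyond the removal of barcodes given above. Also at 0 in old females were Wfdc17, Prss34, Aff3, Prkcb and Ptprc, and Igkc fell there by 2.87 ± 0.62 (adjusted p = 0.0047). Aff3 did not pass with DESeq2 (adjusted p = 0.192). With at least 5 rule genes the adjusted p in females was 0.0511 for H2-Eb1 and Igkc, 0.0861 for H2-Ab1, 0.0986 for Bach2 and 0.110 for Bank1. Hba-a1 fell in females by 3.55 ± 0.66 (adjusted p = 0.00075). Itpr2, a calcium channel, fell in both sexes together by 2.95 ± 0.71 (adjusted p = 0.011), but did not pass with DESeq2 (adjusted p = 0.0698), with at least 5 rule genes (adjusted p = 0.231) or in 5 of 8 fits with 1 library left out.

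In males 7 genes rose, most of them in few barcodes. Cxcl12, a chemokine of stromal cells, had 4 UMIs in young male femur and none in the tibia, and 6 and 17 UMIs in old males, each time in 1 barcode. C1qb and C1qa, complement genes of macrophages, had 1 barcode with UMIs in old male femur and 2 in the tibia, where the upper one held 94.7% of the C1qb UMIs. Hmox1 and Hspa1b, genes of heme breakdown and of heat shock, had no UMI in old male femur and 12 and 46 UMIs in 3 barcodes of the tibia, and Wfdc17 had 2 and 14 UMIs. With DESeq2 the adjusted p was 0.0801 for C1qa, 0.0992 for Hmox1 and Wfdc17 and 0.832 for Hspa1b. H2-K1, an MHC class I chain, was spread more widely, over 4 of 7 and 8 of 12 barcodes, at 211 and 165 CPM in young and 720 and 1334 in old males (2.18 ± 0.55, adjusted p = 0.046), and passed in none of the 8 fits with 1 library left out. Camk1d, a calcium-dependent kinase, fell by 2.39 ± 0.55 (adjusted p = 0.024), from 4224 and 4217 CPM in young to 630 and 1302 in old males. Rn18s-rs5 was also lower in old males, at 19.2% and 17.7% of UMIs in young and 2.66% and 7.97% in old libraries, and did not pass the test (-2.07 ± 0.55, adjusted p = 0.05). H1f2, a linker histone, fell by 2.79 ± 0.66 (adjusted p = 0.027). Without the old male femur library, which has 7 barcodes, no gene passed in males (edgeR, 229 at an unadjusted p under 0.05), and without the 1 barcode called a doublet 2 rose and 7 fell. None passed in males with at least 5 rule genes (edgeR, 55 at an unadjusted p under 0.05).

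**Figure D5:**
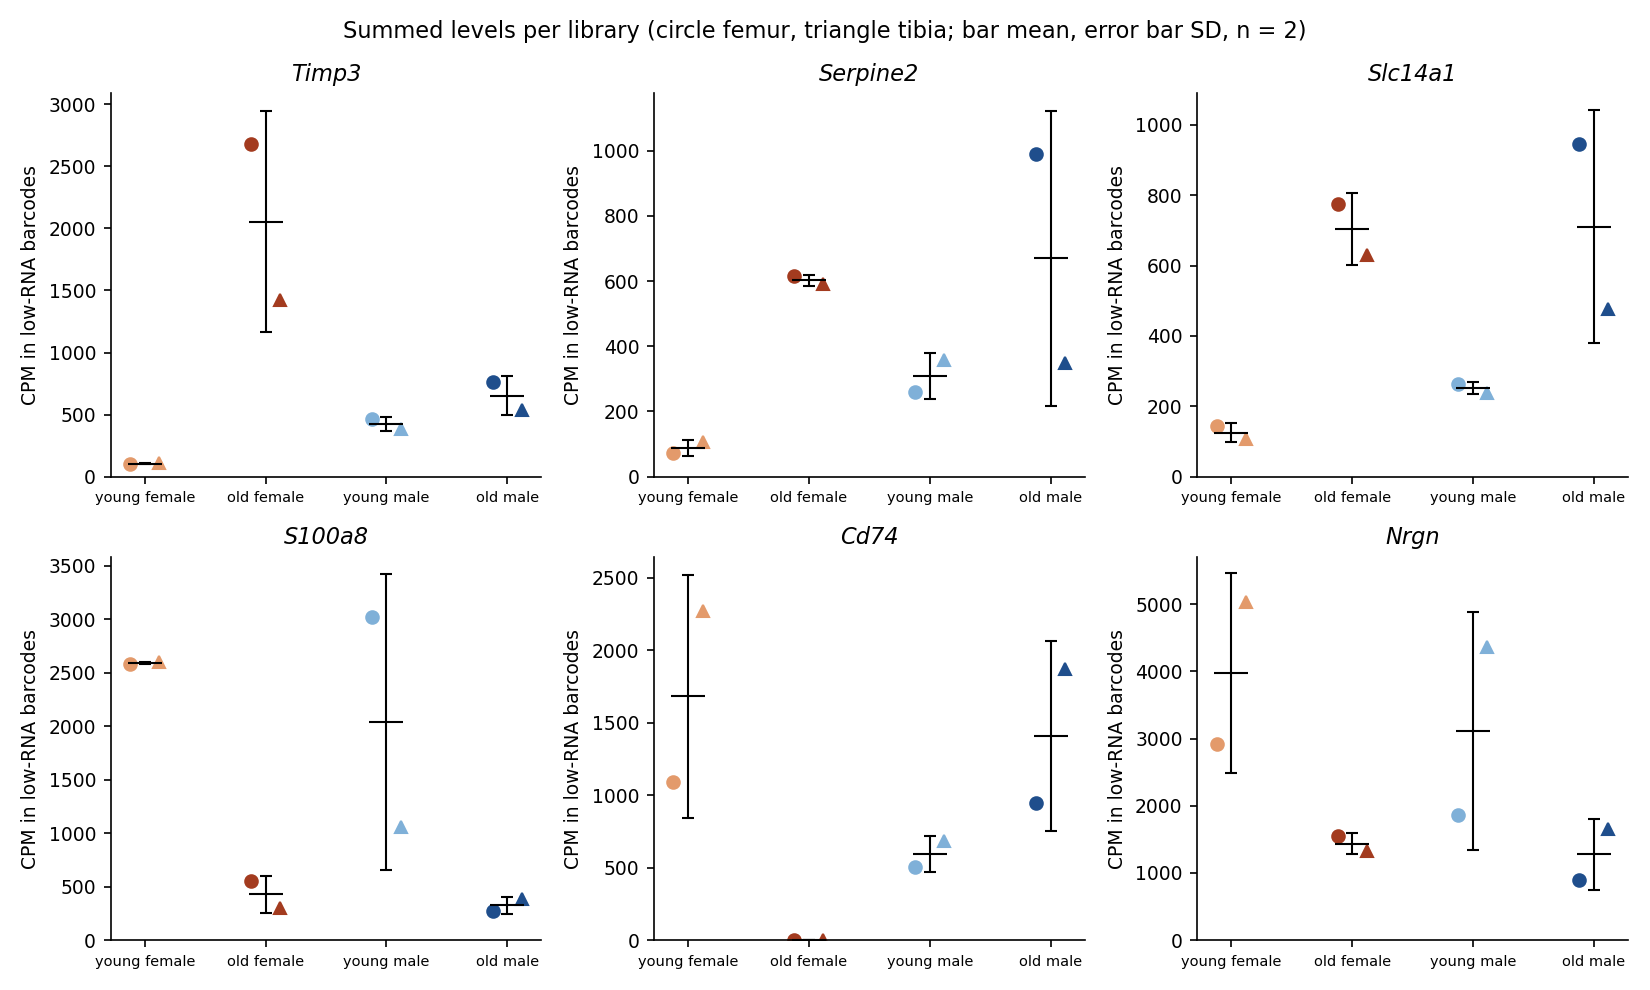
CPM in low-RNA platelet-gene barcodes (vertical axes) of 6 genes by group (horizontal axes); circles are femur and triangles tibia libraries, with mean and SD (n = 2). Timp3 is highest in the old female and lowest in the young female libraries, S100a8 and Nrgn are lower in the old libraries of both sexes, and Cd74 has no UMI in old females.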

How the data were processed

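Raw UMI counts per gene and barcode were deposited by the authors, who made them with Cell Ranger 7.2.0 on mm10 from 10x Genomics libraries of 8 samples; the submitters' processing notes also name GRCm39 and Seurat 5. The annotation release is not given in the sources used here. File names of the femur matrices read fibula, and the labels were followed. The matrices hold 25906 genes and no coordinates. Positions came from GENCODE M21 (mm10) for 25461 gene identifiers, and promoters from RefSeq (GRCm38.p6).

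The members, gene lists, comparisons and alternatives were chosen with earlier results of these data known. Counts were summed per library over members. Age was tested in edgeR 4.0.16 (R 4.3.3; filterByExpr, TMM, quasi-likelihood test, 4 groups, Benjamini-Hochberg adjustment, threshold 0.05). At least 20 members per library had been planned, which no old library reached. The minimum was dropped after the counts were seen. Members and RNA-rich barcodes were fitted with library as a block in the 4 libraries with 20 of each, and the rule genes were left out of counts. Since the 2 libraries of a group share their mice, p-values leave out the spread between mice. Shares were compared by exact permutation over libraries (scipy 1.17.1). Doublets were called with Scrublet (scanpy 1.11.5, expected rate 6%) and retained. Barcodes were thinned to 500 UMIs for the age fit and to 1000 for detection and the classes, and for the shares libraries were thinned to equal median UMIs. The edgeR scripts were run on simulated counts with a fixed spread between libraries (dispersion 0.05). Single barcodes that carry most UMIs of a gene were not simulated, so that run does not give error rates for these data.

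Named genes were the 8 rule genes, S100a8, Camp and Igkc, 9 receptors and the 3 most abundant genes of each list. Of the receptors, the paper's text names Itga2b, F2r, P2ry12 and Htr2a. In each edgeR comparison up to 10 rises and 10 falls were added. These passed, averaged 50 CPM or more and had 1 sign in femur and tibia (in each young library for the comparison of classes). Other names were chosen after values were seen. A few results of these lists are not reported here. Listed nuclear-retained transcripts matched no feature. Y-linked genes had 0 to 1 UMIs in female and 5 to 32 in male members.

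Alternatives were DESeq2 1.42.0, upper-quartile normalization, retaining genes of low count, the bone as replicate block, other limits of the rule, doublets, barcodes or genes of other cells removed, thinning and each library left out. Those added after seeing the data were all 8 libraries, with and without barcodes holding RNA of another cell type, and ribosomal RNA genes removed.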

Additional observations from a re-analysis of the deposited data

Results flagged for a closer look

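The age change differed between the sexes beyond the adjusted threshold for 13 genes chosen by the naming rule (edgeR interaction, male minus female log2 change). Timp3 (-3.89), Cmss1 (-2.99, adjusted p = 0.026) and Lars2 (-2.75, adjusted p = 0.039) were lower in the male comparison. Cmss1 and Lars2 were highest in old female and lowest in old male femur, as was the Rn18s-rs5 share, and with the ribosomal RNA genes removed before normalization they were -3.04 (adjusted p = 0.027) and -2.79 (adjusted p = 0.041). With 1 library left out Cmss1 no longer passed in 4 of 8 fits and Lars2 in 6 of 8, and with at least 5 rule genes neither passed (adjusted p = 0.196 and 0.118). Lars2 did not pass with genes of low count retained (adjusted p = 0.0653). Timp3 passed in all of these.

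The other 10 were higher in the male comparison, with Hmox1 at 11.87, Wfdc17 at 11.40, Cd74 at 11.34, H2-Eb1 at 10.55, H2-Ab1 at 10.18, Slc8a1 at 10.00, C1qc at 9.87, Mpeg1 at 9.64, C1qb at 8.27 and Ptprc at 8.16. All of these but C1qb had no UMI in old females, and C1qb had 1, so the fitted sizes depend on the prior count and are no bounds. With 1 library left out Ptprc and Mpeg1 no longer passed in 5 of 8 fits, Slc8a1 in 4, C1qc in 3, Hmox1 in 2 and Wfdc17 and C1qb in 1. Ptprc also did not pass with DESeq2 (adjusted p = 0.0585) or with genes of low count retained (adjusted p = 0.0578). In old males Slc8a1 rested on 12 UMIs of 1 barcode in the femur and 7 UMIs of 2 barcodes in the tibia library.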

How the results depend on the processing

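Depth limits these results: old libraries gave 7 to 18 barcodes, and sums of 22224 to 49155 UMIs. The share among filtered barcodes did not pass under any setting, and its difference turned positive with at least 3 rule genes (0.0272 percentage points), at most 10% mitochondrial UMIs (0.0496) and barcodes with RNA of another cell type removed (0.620). The share among platelet-gene barcodes was -26.5 percentage points with at least 5 rule genes and 4.02 with that removal. The neutrophil share was -0.421 percentage points as a median per barcode, and -0.791 to -0.551 with 1 library left out, where no such exact permutation test can pass (smallest p = 0.0571). The causes of these shifts were not tested.

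Calls by age (edgeR) numbered 40 in both sexes together, 53 in females, 14 in males and 27 for the difference between sexes. Retaining genes of low count gave 104, 84 and 22 for the first 3. Removing barcodes with RNA of another cell type gave 0, 0, 1 and 0 of 509 genes, with 1 barcode left in each young female library. Thinning to 500 UMIs gave 20, 16, 2 and 7 of 299 genes, and at least 5 rule genes gave 12, 8, 0 and 9 of 785 (in males 55 at an unadjusted p under 0.05). DESeq2 gave 27 in females. Without the ribosomal RNA genes the counts were 40, 52, 9 and 25. In males, removing the doublet gave 9, and removing genes of other cells gave 5. With 1 library left out the counts ran from 9 to 81 in both sexes together, 3 to 78 in females, 0 to 23 in males and 8 to 28 for the difference. The lowest were without old female tibia (9 and 3), old male femur (0) and old male tibia (8). A lone library was then assumed to vary like the other groups.

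With the bone as replicate block the calls were 50, 75, 21 and 32. Correlations of femur deviations between groups ran from -0.0922 to 0.420, with 5 of the 6 pairs under 0.1, so the bone was not taken to pair the libraries.

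Between the classes, which the rule set apart, the fit is a description. The rule used RNA of the same barcodes, so neither the counts nor the shared signs given next are a test. The fit (edgeR) gave 2914 of 9801 genes at an adjusted p under 0.05. It gave 12 of 594 in 2 libraries with thinning to 1000 UMIs and 4 rule genes after thinning. Of 419 of the 2914 that could be fitted then, 315 had the same sign, and Slc6a4 (-0.39), Tpm2 (-0.55), Cd226 (-0.22), Gp1bb (-0.98), Itga2 (-0.047) and Mef2c (0.58) changed sign. Itga2b was 0.66 in all 8 libraries, and -0.28 in all 8 with barcodes of another cell type removed. Dut was 1.81 with that thinning, turned to -0.029 with genes of low count retained, ran from -0.28 without young male tibia to 0.31 with 1 library left out, and stood at -0.36 in all 8 libraries and -0.51 in all 8 with that removal. With 1 library left out, Hmox1 in males ran from -3.29 to 4.75 and Hspa1b from -5.92 to 4.82, both negative without old male tibia.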
